A study of Papio papio with 23 samples.

Results

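Gene expression in peripheral whole blood was compared between baboons on the second day after irradiation and unexposed baboons, over 4 arrays of the H1-2 category on day 2 and 5 arrays of category H0. These are 9 of the 23 arrays of the series, chosen by the category and day in their titles. H1-2 stands for a low to medium degree of haematological acute radiation syndrome (HARS), the failure of blood cell production that follows a large radiation dose. The other groups drawn on were the H1-2 category on day 1 (4 arrays, carrying the same baboon numbers as day 2) and the more severe H2-3 category on day 2 (5 arrays). H0 denotes healthy animals without exposure, sampled before irradiation; whether they were the animals irradiated later is not stated. Every animal was an adult male Papio papio, with a mean age of 8.1 ± 3.3 years over the study. Irradiated animals were anaesthetised and received gamma rays from a 60Co source to the whole body or a part of it, at an equivalent whole-body dose of 2.5 or 5 Gy. Neither the dose nor the exposed part of the body is given per animal, so both can vary within a group. The study screened for genes that change in the first 2 days and that could mark the later severity; the comparison made here asks what on day 2 differed from unexposed blood and what was at its level.

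Whole blood RNA comes from reticulocytes, platelets, neutrophils, monocytes and lymphocytes, and it shifts when the mix of these cells shifts. Radiation kills lymphocytes, B cells most readily, and neutrophils leave the marrow for the blood soon after exposure as part of a stress response. In nucleated cells, DNA breaks activate the transcription factor p53, which induces genes for cell cycle arrest (CDKN1A), repair (DDB2, PCNA, XPC), apoptosis (BAX, BBC3, AEN) and its own inhibition (MDM2). Platelets carry RNA from the megakaryocytes of the marrow and have no nucleus of their own. In such bulk samples, fewer cells of a type and less of an RNA per cell cannot be told apart.

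The arrays carry human 60-base probes, so a baboon RNA is read through a human sequence and a base difference can lower its signal. The probes below are shown because the results turn on their genes: 2 platelet genes, 2 targets of p53 and the macrophage gene MARCO. Each is written 5′ to 3′ from the deposited array files, with its hg19 position. No gene annotation was used here, so exon and UTR positions are not given.
PPBP, chr4:74853299-74853358, minus strand: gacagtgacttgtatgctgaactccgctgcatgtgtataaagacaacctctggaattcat
ITGA2B, chr17:42453290-42453349, minus strand: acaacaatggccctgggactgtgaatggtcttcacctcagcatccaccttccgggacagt
CDKN1A, chr6:36652178-36652237, plus strand: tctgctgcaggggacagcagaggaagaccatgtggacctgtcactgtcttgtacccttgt
PCNA, chr20:5095811-5095870, minus strand: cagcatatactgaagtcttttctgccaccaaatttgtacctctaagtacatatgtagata
MARCO, chr2:119751977-119752036, plus strand: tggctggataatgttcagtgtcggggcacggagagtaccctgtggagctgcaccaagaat
The GC content of these probes ran from 35.0% (PCNA) to 55.0% (ITGA2B, CDKN1A and MARCO). Levels of different probes are therefore not set against each other, and each gene is compared with itself across arrays.

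Each level below is the log2 processed signal of a probe minus the 75th percentile of its array, so that 0 marks this percentile and a difference of 1 is a 2-fold change. Of the 50599 probes, 46.3% to 50.8% exceeded background clearly on the day 2 arrays, against 44.9% to 51.3% on the H0 arrays, and no probe was saturated. The blood label held up on its defining genes: HBB, the beta chain of haemoglobin, was at 11.78, 12.05, 12.42 and 12.23 on day 2, against 12.47, 12.17, 12.23, 12.34 and 12.17 in H0, and CSF3R, the neutrophil receptor for G-CSF, was above 8 on all 9 arrays. Probes for MS4A1, the B cell antigen CD20, and ARG1 were well above background on only 1 of 23 arrays and were not tested. All 4 day 2 arrays were scanned on 1 scan day that held only day 2 arrays (H1-2 and H2-3), and no H0 array shared a slide or a scan day with them. Scan day, slide and group therefore cannot be told apart in the comparison of day 2 with H0, and this applies to every difference between them given below. Within the day 2 group, baboons 1 and 2 were on 1 slide and baboons 3 and 4 on another.

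No gene of the 21128 tested passed an adjusted p under 0.05 on day 2 against H0 (limma, Benjamini-Hochberg adjustment; 0% called). The smallest adjusted p was 0.0761, for AEN. An unadjusted p under 0.05 was reached by 2228 genes (10.5%), against 1056 expected if no gene differed; 1130 of them were higher (5.35%) and 1098 lower (5.2%) on day 2. The median difference over all genes was -0.01, and the 95% interval of a gene's difference reached a median of 0.61 to either side, so differences below that size could not usually be resolved. All 4 day 2 arrays lay above every H0 array for 174 genes (0.824%) and below every H0 array for 190 (0.899%). Weighting the arrays by their quality called 33 genes (15 higher and 18 lower on day 2), among them AEN, DDB2, EPS8, RIN1, TIMP1, CTSC and GNGT2 as higher and ALOX15, ADD2, MEAF6, IGFBPL1 and PTHLH as lower.

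AEN, an exonuclease gene induced by p53 in apoptosis, stood at -0.68, -0.29, -1.56 and -0.80 on day 2, against -2.37, -3.10, -5.13, -2.49 and -2.59 in H0. The difference was 2.30 ± 0.41 (SE, limma, adjusted p = 0.0761), and a second AEN probe gave 1.63. Over 30 alternatives of the processing and arrays, the AEN difference ran from 0.60 to 2.57. All 4 day 2 arrays lay above all 5 H0 arrays, although only 3 of the 5 H0 arrays were well above background and H0 baboon 3 lay far below the others. EPS8, an actin regulator and substrate of the EGF receptor, was at -0.75, -0.86, -2.34 and -2.44 on day 2 and at -4.18, -5.19, -3.11, -3.31 and -3.88 in H0. None of the 5 H0 arrays measured EPS8 above background, so it was at least 3.00-fold higher on day 2, taking the dimmest signal that was well above background on each H0 array as its level where that was the higher value (adjusted p = 0.0794 in limma). Over 30 alternatives the EPS8 difference ran from 0.50 to 3.04, and the 3.00-fold bound holds for the reported processing only. EPS8 also rose on day 1, by at least 3.17-fold (limma, adjusted p = 0.0141).

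The 12 genes with the smallest p among those higher on day 2 also held TYMS, CD1A, RIN1, FKBP1B, TIMP1, HSD17B12, BUD31, CTSC, GNGT2 and DOK6, with differences of 0.83 (HSD17B12) to 2.41 (CD1A). A second HSD17B12 probe gave 0.21, and CD1A was well above background on 3 of 5 H0 arrays. TYMS, thymidylate synthase of DNA synthesis, was at -1.41, 0.25, -1.16 and -0.95 on day 2, against -2.91, -3.66, -3.07, -3.38 and -2.06 in H0, with a difference of 2.20 ± 0.48 (adjusted p = 0.256 in limma). Only 2 of the 5 H0 arrays measured TYMS well above background, so the size of its difference is not well measured. It was higher on 4 of 4 day 2 arrays than on any H0 array, and it rose on day 1 by 2.02 (limma, adjusted p = 0.0188). RIN1, an effector of Ras, was at 2.07, 2.00, 1.06 and 1.88 on day 2 and at 0.35, 0.49, 0.37, 0.85 and 0.08 in H0, a difference of 1.32. TIMP1, an inhibitor of matrix metalloproteinases, was at 4.66, 4.21, 3.36 and 2.48 on day 2, against 1.77, 2.25, 2.61, 2.37 and 1.52 in H0; 3 of its 4 day 2 arrays exceeded the H0 range. CTSC, the protease that activates the serine proteases of granules, differed by 0.94, and its other probes by 0.32 and 0.72.

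Among the 12 genes with the smallest p on the lower side, PTHLH, the parathyroid hormone-like hormone, was at -3.45, -3.73, -2.62 and -3.41 on day 2, against -1.36, -1.85, -2.16, -2.11 and -2.31 in H0 (difference -1.35 ± 0.28; limma, adjusted p = 0.204). Only 1 of its 4 day 2 arrays was well above background, so the lower values are near the limit of the measurement. ADD2, the beta adducin of the red cell membrane skeleton, was at -1.77, -1.14, -0.22 and -0.26 on day 2 and at 1.99, 1.13, 0.24, 1.42 and 0.19 in H0, with differences of -1.84 on this probe and -1.44 and -1.20 on its other probes. ALOX15, a lipoxygenase of eosinophils and reticulocytes, was at -2.03, -1.64, -0.11 and -1.55 on day 2, against -0.13, 0.19, -0.04, 1.33 and 0.32 in H0. E2F2, a transcription factor of cell cycle entry that also acts in red cell maturation, was at 4.68, 4.11, 5.32 and 4.42 on day 2 and at 7.20, 6.44, 5.75, 5.83 and 5.47 in H0. All 4 day 2 values of ADD2 and E2F2 lay below every H0 value. Also among the lower genes, MEAF6, OTOP2, DCT, IGFBPL1, GFOD2, C2orf51 and PLAC9 differed by -0.75 to -1.52 with adjusted p of 0.256 to 0.302 (limma), and a second MEAF6 probe gave 0.27. OTOP2 and C2orf51 were well above background on 2 of 4 day 2 arrays and IGFBPL1 on 3 of 4. They met the naming rule through H0 alone, where all 5 arrays were well above background. Their day 2 values are thus also near the limit of the measurement.

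**Figure D1:**
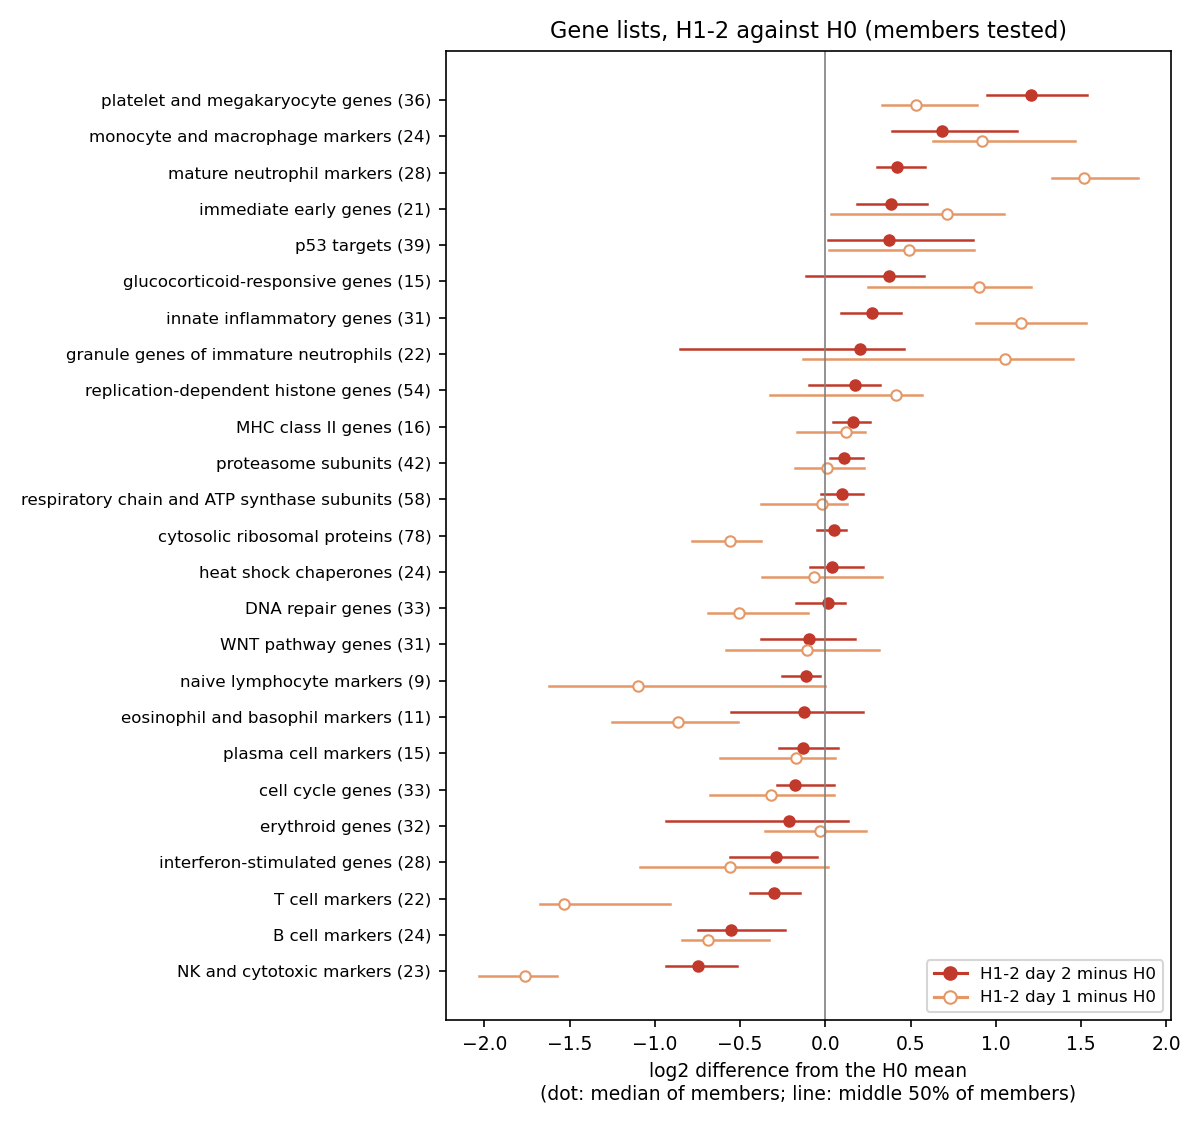
The log2 difference from the H0 mean for 25 gene lists, with H1-2 day 2 (filled dots) above H1-2 day 1 (open dots); a dot is the median over the list's tested members, whose number is in brackets, and a line spans the middle 50% of members. The platelet list has its median at 1.21 on day 2, against 0.53 on day 1, while the neutrophil, NK and ribosomal lists lie closer to 0 on day 2 than on day 1.

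The platelet and megakaryocyte genes had the highest median of the 25 lists on day 2, at 1.21 over 36 tested members of 40. All 36 had a positive difference from H0, and 28 had an unadjusted p under 0.05, beside 5.35% of all genes on that side; none was called after adjustment. On day 1 the list's median was 0.53, and 3 members rose at an adjusted p under 0.05, where 4.18% of all genes did. The list's mean level was 3.45, 3.18, 3.81 and 1.82 in baboons 1 to 4 on day 2, against 1.57, 1.93, 2.60, 1.82 and 1.36 on the 5 H0 arrays. Baboons 1, 2 and 3 lay above the whole H0 range and baboon 4 within it, so that 0 of the 36 genes had all 4 day 2 arrays above H0. The median was 1.66 without baboon 4 and 0.95 without baboon 3.

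PPBP, the precursor of the platelet chemokine NAP-2, was at 6.15, 5.13, 6.90 and 3.60 on day 2, against 4.14, 4.34, 4.77, 3.07 and 2.78 in H0 (difference 1.63 ± 0.58; adjusted p = 0.367 in limma). PF4, platelet factor 4, was at 7.99, 7.61, 9.05 and 6.75 on day 2 and at 6.53, 7.15, 7.60, 6.76 and 6.16 in H0, a difference of 1.01 ± 0.48. Both chemokines had their highest value in baboon 3 and their lowest day 2 value in baboon 4; PF4 has a near-identical copy, PF4V1, and the probes may not separate them. ITGA2B, the alpha chain of the fibrinogen receptor, was at 2.17, 2.51, 2.79 and 0.99 on day 2, against 0.67, 0.53, 1.64, 1.01 and -0.36 in H0. Its partner ITGB3 was at 0.24, -0.94, 0.27 and -3.42 on day 2 and at -3.31, -3.76, -2.34, -2.26 and -3.63 in H0, a difference of 2.10 ± 0.71. Both chains again separated baboons 1 to 3 from H0 and left baboon 4 inside the H0 range. Of the receptor for von Willebrand factor, GP1BB was at 9.20, 8.83, 9.65 and 7.42 on day 2, against 7.07, 7.58, 7.82, 7.49 and 5.92 in H0, and GP9 differed by 1.28 ± 0.48. VWF, von Willebrand factor, differed by 1.88 ± 0.51 on its brightest probe and by 0.07 on its other probe, so its probes disagree.

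Granule and surface genes of platelets were likewise lowest in baboon 4 on day 2. SELP, the adhesion receptor P-selectin, was at 3.45, 3.29, 3.65 and 1.80 on day 2, against 1.29, 1.33, 2.46, 1.98 and 1.56 in H0. NRGN, a calmodulin-binding protein found in platelets, was at 5.88, 6.43, 7.05 and 4.92 on day 2 and at 4.10, 4.04, 5.23, 4.78 and 3.51 in H0. In both, baboons 1 to 3 exceeded every H0 array. PTGS1, the cyclooxygenase that starts thromboxane synthesis, differed by 1.10 on day 2 and by -0.21 on day 1, and TREML1, a receptor of platelet granules, by 1.51 and 0.53 on these days. Both transcription factors of the lineage on the list had small differences on day 2: 0.35 ± 0.30 for GFI1B and 0.27 ± 0.28 for NFE2, which also serves red cell precursors and neutrophils. The 3 platelet genes that rose on day 1 were LTBP1, TBXAS1 and NFE2; LTBP1 (1.33) and TBXAS1, thromboxane synthase (0.87), still had an unadjusted p under 0.05 on day 2.

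**Figure D2:**
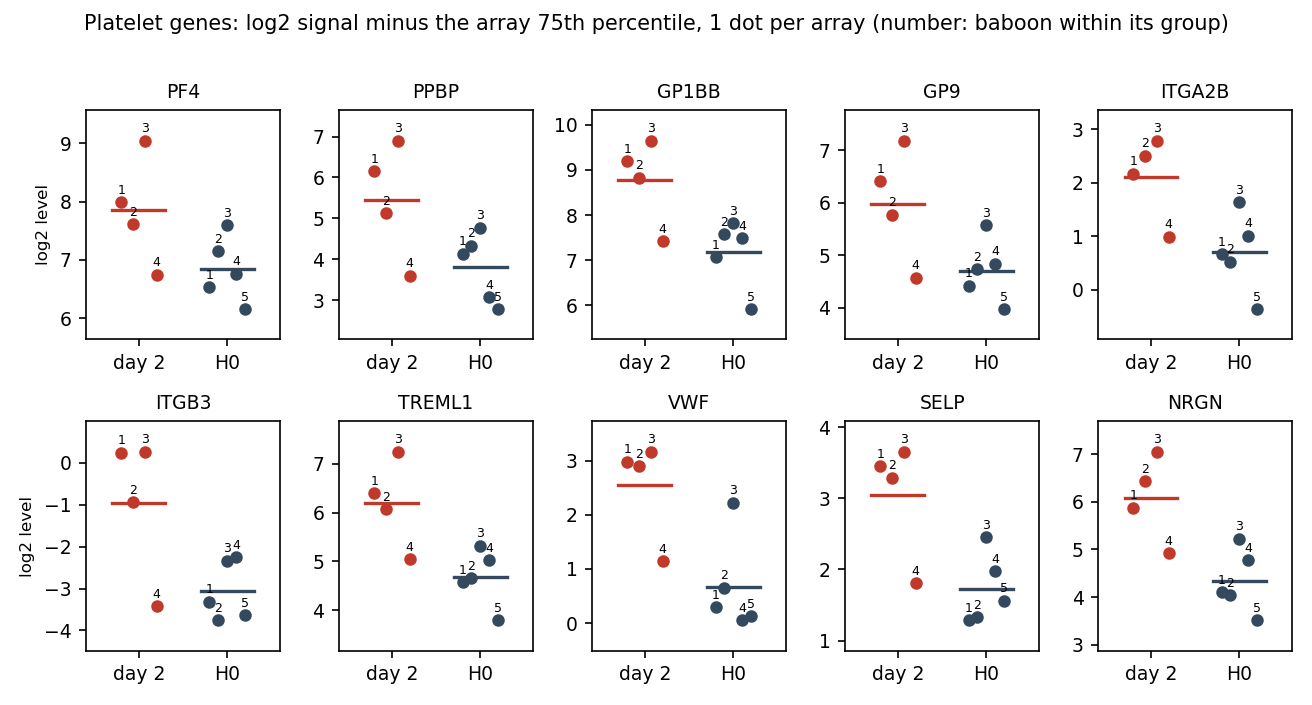
The log2 level of 10 platelet genes by array, with H1-2 day 2 on the left and H0 on the right; each dot is 1 array, its number the baboon within its own group, and the line the group mean. In PPBP, ITGA2B and GP1BB the day 2 values of baboons 1, 2 and 3 are above every H0 value, while baboon 4 is among them.

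Targets of p53 had a median difference of 0.37 on day 2, against 0.49 on day 1, over 39 tested members of 44. On day 2, 30 members were on the positive side, and 12 had an unadjusted p under 0.05, all of them higher, beside 5.35% of all genes; none was called. On day 1 DDB2, TRIM22, PLXNB2 and BTG2 rose and PLK2 fell at an adjusted p under 0.05, where 4.18% of all genes rose and 4.42% fell. The mean level of the list was 1.51, 1.63, 0.90 and 1.00 in baboons 1 to 4 on day 2, against 0.49, 0.77, 0.85, 0.90 and 0.81 on the H0 arrays. Baboons 1 and 2 stood well above H0, while baboons 3 and 4 were just above its upper end. The median was 0.19 when only the 3 H0 arrays scanned on the scan day of the day 1 arrays were kept.

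DDB2, which recognises damaged DNA in excision repair, was at 4.58, 5.41, 3.51 and 3.92 on day 2, against 3.24, 2.65, 2.81, 3.11 and 2.88 in H0. The difference was 1.42 ± 0.35 (limma, adjusted p = 0.261), with 1.33 on a second probe, and all 4 day 2 arrays lay above H0. RPS27L, a ribosomal protein paralog induced by p53, was at 4.46, 4.00, 3.79 and 3.44 on day 2 and at 3.19, 3.20, 2.99, 3.05 and 2.75 in H0; it and AEN were the other members of the list with all 4 day 2 arrays above H0, which 0.824% of all genes had. CDKN1A, the cyclin-dependent kinase inhibitor p21, was at -0.53, -0.18, -2.06 and -2.97 on day 2, against -3.21, -3.22, -1.67, -3.17 and -3.43 in H0, with a difference of 1.50 ± 0.56. Its higher values were those of baboons 1 and 2, and only 1 H0 array was well above background. PCNA, the sliding clamp of DNA polymerase, was at 3.56, 3.82, 2.73 and 2.51 on day 2 and at 1.84, 2.66, 2.33, 2.24 and 2.48 in H0, a difference of 0.85 ± 0.29, with 0.92 and 0.93 on its other probes.

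Among the apoptosis genes of the list, BBC3, which encodes PUMA, differed by 1.08 ± 0.37, and TNFRSF10B, a death receptor for TRAIL, by 1.42 ± 0.43, with 3 of 4 day 2 arrays above the H0 range in each. BAX differed by 0.34 on the brightest probe and by -0.34 on the other. GDF15, a secreted stress cytokine, was at 1.77, 1.83, 2.04 and 0.41 on day 2, against -0.01 to 0.42 in H0 (difference 1.33 ± 0.33; adjusted p = 0.256 in limma), with baboon 4 inside the H0 range. MDM2, the ubiquitin ligase that removes p53, gave 0.24 ± 0.25 on its brightest probe and 1.05, 0.55 and 1.04 on its other probes, so its size on day 2 depended on the probe. The differences were -0.21 ± 0.26 for FDXR, an electron carrier of mitochondria, 0.01 ± 0.32 for XPC, -0.14 ± 0.18 for PHPT1 and -0.04 ± 0.26 for GADD45A, with 95% intervals that held 0 and lay within 1 of it. BTG2 (0.37) and PLK2 (0.10), called on day 1 in opposite directions, had day 2 intervals that held 0 and lay within 1 of it.

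**Figure D3:**
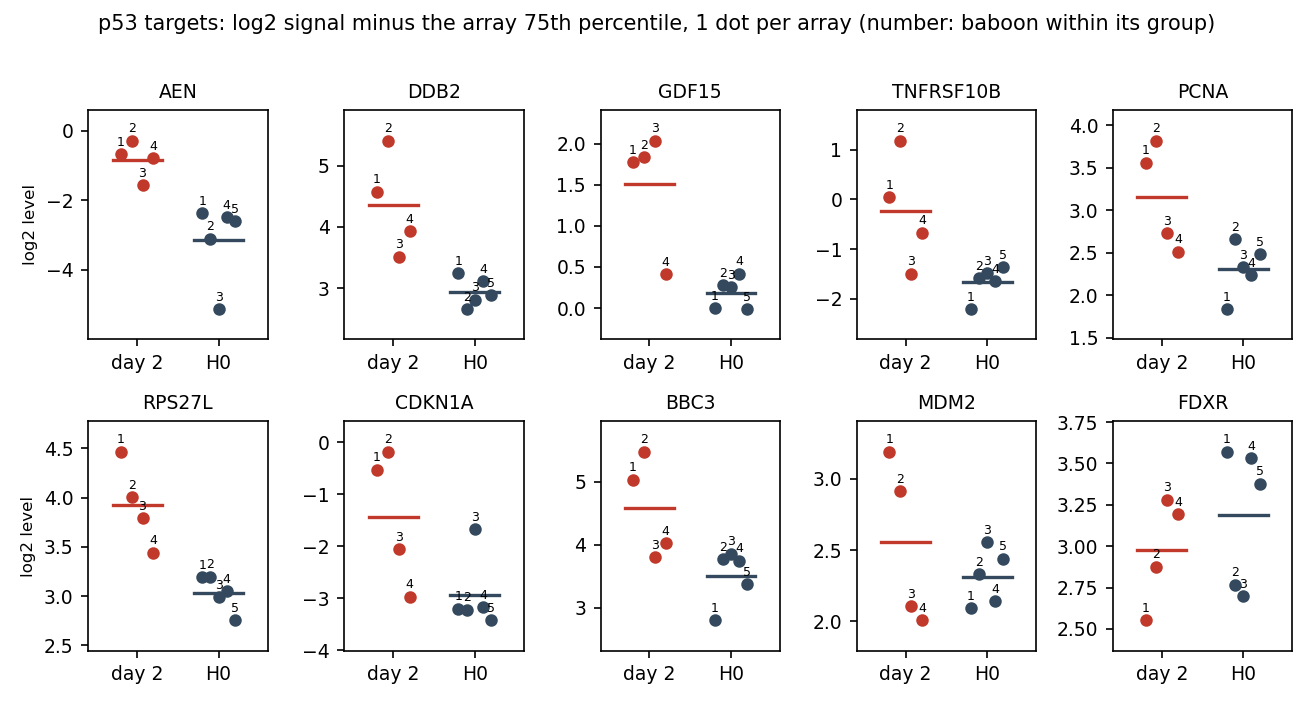
The log2 level of 10 p53 targets by array, with H1-2 day 2 on the left and H0 on the right; dots are arrays numbered by baboon within their group and lines are group means. AEN, DDB2 and RPS27L show no overlap between the groups, and in CDKN1A and PCNA the day 2 values of baboons 1 and 2 stand above those of baboons 3 and 4.

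Monocyte and macrophage markers had a median difference of 0.68 on day 2, against 0.92 on day 1, and 22 of 24 tested members were positive on day 2. An unadjusted p under 0.05 was reached by 9 of them, all higher, beside 5.35% of all genes. MARCO, which binds bacteria on the macrophage surface, was at -0.39, 0.86, -3.51 and -3.18 on day 2 and at -4.19, -5.55, -3.74, -4.75 and -5.16 in H0. No H0 array and 2 of the 4 day 2 arrays (baboons 1 and 2) measured it above background. With the H0 level set as for EPS8, its day 2 mean was at least 3.19-fold higher (adjusted p = 0.315 in limma). That bound averages in the unmeasured values of baboons 3 and 4 and holds for the reported processing only. Over 30 alternatives the MARCO difference ran from 0.73 to 4.18. On day 1 all 4 arrays measured MARCO and it rose by at least 11-fold in the reported processing (limma, adjusted p = 0.0141). This was the largest fitted rise among the genes with a symbol called that day. MSR1, a scavenger receptor, was at -0.61, -0.92, -2.34 and -1.76 on day 2, against -3.98, -3.07, -2.37, -2.73 and -2.47 in H0, and CD68, a lysosomal protein of macrophages, was at 3.49, 3.44, 1.87 and 2.14 on day 2 and at 1.71, 1.86, 1.62, 1.70 and 1.38 in H0. The 4 day 2 arrays exceeded all H0 arrays for MARCO, MSR1, CD68 and VSIG4, a complement receptor of macrophages, beside 0.824% of all genes. For MARCO this includes values not above background, those of day 2 baboons 3 and 4 and of H0. For MSR1 the closest values were -2.34 in day 2 baboon 3 and -2.37 in H0 baboon 3. The list's mean level was 3.1 and 2.88 in baboons 1 and 2 but 1.35 and 1.55 in baboons 3 and 4 on day 2, against 1.05 to 1.82 in H0, so that baboons 3 and 4 lay within the H0 range. On day 1, 8 of the 24 tested members rose at an adjusted p under 0.05, beside 4.18% of all genes. Of these 8, 5 (MARCO, VSIG4, MSR1, CD163 and CTSD) still had an unadjusted p under 0.05 on day 2.

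B cell markers split the 4 animals. The mean level of 24 tested members was -0.14 and -0.01 in baboons 1 and 2 and 2.14 and 2.12 in baboons 3 and 4 on day 2, against 1.08, 1.38, 1.71, 1.44 and 1.76 in H0. Baboons 1 and 2 lay below every H0 array and baboons 3 and 4 above every one; on day 1 the levels were 0.21, -0.43, 1.88 and 1.67, again lower in baboons 1 and 2. VPREB1, of the surrogate light chain of immature B cells, was at -0.36, -3.36, 1.28 and 1.13 on day 2 and at 0.38, 0.12, 0.74, 1.30 and 1.01 in H0. WNT3, a secreted WNT ligand, was at 2.52, 1.74, 6.06 and 6.51 on day 2, against 5.39, 4.55, 4.67, 5.53 and 5.58 in H0. With this spread, 0 of 24 B cell markers had an unadjusted p under 0.05, although 22 were negative and their median was -0.55; it was -0.11 without day 2 baboon 1 and -0.98 without day 2 baboon 4. Baboons 1 and 2 shared a slide and baboons 3 and 4 another. On day 1 the same pairs were also slide mates, so within H1-2 animal and slide cannot be told apart. H2-3 arrays of day 2 shared these slides. Their B cell levels were -0.30, -0.67 and -0.30 on the slide of baboons 1 and 2. On the slide of baboons 3 and 4 they were -1.03 and -0.37. An effect of slide was not tested.

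T cell markers had a median difference of -0.30 on day 2, against -1.53 on day 1, over 22 tested members. On day 1, 8 of them fell and CD4 rose at an adjusted p under 0.05, beside 4.42% and 4.18% of all genes. On day 2, 1 of the 22, SH2D1A, a signalling adaptor of T and NK cells, had an unadjusted p under 0.05 on the lower side, a share near the 5.2% of all genes. The day 2 median was -0.16 without day 2 baboon 2 and -0.54 without day 2 baboon 4. SH2D1A was at 0.48, -0.34, 0.76 and 0.60 on day 2 and at 2.82, 1.03, 0.82, 1.53 and 1.58 in H0, but its other probes gave 0.21 and -0.84. CD3G, the gamma subunit of CD3, was at 4.45, 3.95, 4.35 and 4.89 on day 2, against 5.98, 4.47, 4.54, 5.34 and 5.63 in H0. Its difference was -0.78 ± 0.42 on day 2 (adjusted p = 0.503 in limma), against -2.11 ± 0.42 on day 1, when it fell (adjusted p = 0.0141). CCR7, the homing receptor of naive lymphocytes, differed by -0.25 ± 0.74 on day 2, and IL7R, the receptor for interleukin 7, by -0.70 ± 0.45. The mean level of the T cell list was 2.96, 2.73, 3.27 and 3.59 on day 2, against 3.82, 3.11, 2.91, 3.76 and 3.51 in H0, with baboon 2 alone below the H0 range.

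NK and cytotoxic markers had the lowest median of the 25 lists on day 2, at -0.75 over 23 tested members, against -1.76 on day 1. This rank did not hold in every setting. B cell markers were lower without day 2 baboon 3 (-0.96, against -0.53), day 2 baboon 4 (-0.98, against -0.76) or H0 baboon 1 (-0.58, against -0.55). With the H0 arrays of the day 1 scan day alone, interferon-stimulated genes (-0.58) and B cell markers (-0.57) were lower than NK markers (-0.55). All 23 NK and cytotoxic markers were negative on day 2, and 4 had an unadjusted p under 0.05 (GZMA, NCR3, KLRF1 and GZMK), beside 5.2% of all genes on that side. NCR3 differed by -1.25 on its brightest probe and by -0.29 on another. On day 1, 13 members of the list fell, beside 4.42% of all genes. KLRF1, an activating receptor of NK cells, was at -1.79, -1.01, -1.08 and -0.65 on day 2 and at 1.36, 0.76, -0.23, 0.83 and 2.19 in H0, with a difference of -2.12 ± 0.81 and -2.92 on another probe. It was the member of this list with all 4 day 2 arrays below H0. GZMA, a granzyme, was above background on none of the 4 day 2 arrays and on 3 of 5 H0 arrays. In the reported processing it was at least 1.40-fold lower on day 2, by a bound that averages in the unmeasured H0 values. Over 30 alternatives the GZMA difference ran from -2.01 to -0.33, so the bound does not hold in all of them. GZMH, a granzyme close in sequence to GZMB, was at 8.44, 7.73, 6.14 and 6.43 on day 2, against 8.74, 7.45, 6.56, 8.41 and 8.52 in H0, and FGFBP2, secreted by cytotoxic lymphocytes, differed by -1.53 ± 0.91. Both were among the 8 largest falls of day 1 in genes with a symbol (-2.45 and -2.94), and their day 2 intervals held 0 but reached beyond 1 from it. The mean level of the list was 1.71, 1.48, 1.17 and 1.37 on day 2 and 2.71, 2.07, 1.25, 2.50 and 2.61 in H0, where H0 baboon 3 lay with the day 2 arrays.

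Mature neutrophil markers had a median difference of 0.42 on day 2, against 1.52 on day 1, over 28 tested members. The day 2 median was 0.09 without H0 baboon 1, 0.14 without day 2 baboon 2, 0.77 without H0 baboon 3 and 0.04 with the H0 arrays of the day 1 scan day alone. On day 1, 17 members rose at an adjusted p under 0.05, beside 4.18% of all genes. On day 2, 2 had an unadjusted p under 0.05 on the higher side, a share near the 5.35% of all genes: MGAM and CMTM2, a chemokine-like gene that was above background on 1 of these 9 arrays. CD177, a glycoprotein of the neutrophil surface with close relatives in the genome, rose on day 1 by 3.58 ± 0.72 (adjusted p = 0.0141 in limma) and was at 2.83, 3.95, 3.52 and 1.12 on day 2, against -0.20, 2.52, 5.08, 2.04 and 1.33 in H0. Its other probes gave 3.79 and 1.26 on day 1. On day 2 they gave 0.88 and -0.25, against 0.70 on this probe, so its probes disagree in sign there. The H0 arrays alone spanned more than 5 units for CD177, and all 4 day 2 values lay inside that span. MGAM, maltase-glucoamylase, which neutrophils express, was at 3.46, 4.28, 3.59 and 3.49 on day 2 and at 1.59, 3.03, 4.06, 3.05 and 2.45 in H0. Its difference was 0.87 on this probe and 0.40 on another. CSF3R differed by 0.54 ± 0.32 on day 2, against 1.32 on day 1. The mean level of the list was 3.40, 3.95, 2.91 and 2.18 on day 2 and 1.37, 3.06, 3.91, 2.62 and 2.34 in H0; the H0 array of baboon 1 was the lowest of all 9, and only day 2 baboon 2 was above that of H0 baboon 3. Granule genes of immature neutrophils had a median difference of 0.20 on day 2, while the mean was -0.13. The median was -0.06 without H0 baboon 1, -0.09 without day 2 baboon 2, 0.47 without day 2 baboon 3 and -0.15 with the H0 arrays of the day 1 scan day alone, so it had no settled sign. CHIT1, chitotriosidase, differed by 1.15 and ELANE, neutrophil elastase, by -1.45, and ELANE was above background on 1 of 4 day 2 and 3 of 5 H0 arrays.

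Innate inflammatory genes had a median of 0.28 on day 2, against 1.15 on day 1, when 14 of 31 tested members rose and 1 fell, beside 4.18% and 4.42% of all genes. The day 2 median was -0.03 without H0 baboon 1, 0.61 without H0 baboon 3 and -0.13 with the H0 arrays of the day 1 scan day alone, so its sign rested on single H0 arrays. On day 2 an unadjusted p under 0.05 was reached by 1 member on the higher side, TLR8, an RNA sensor (0.75 ± 0.36), and by 1 on the lower, IL18R1, the interleukin 18 receptor (-0.88 ± 0.34), shares below the 5.35% and 5.2% of all genes. IL18R1 was at -0.79, -0.62, -0.77 and -0.53 on day 2, against 0.59, -0.19, -0.14, 0.47 and 0.31 in H0, with no overlap. Glucocorticoid-responsive genes had a median of 0.37 on day 2, against 0.90 on day 1, but -0.06 without H0 baboon 1 and -0.05 with the H0 arrays of the day 1 scan day alone. TXNIP, an inhibitor of thioredoxin, differed by 0.69 and CD163, the haemoglobin scavenger receptor, by 0.74, both after rises on day 1 of 1.09 and 1.31. Interferon-stimulated genes lay on the lower side, with a median of -0.29 on day 2, against -0.56 on day 1. The median was -0.17 without day 2 baboon 3 and -0.58 with the H0 arrays of the day 1 scan day alone. The 3 of 28 with an unadjusted p under 0.05 on day 2, beside 5.2% of all genes, were IFI44L (-1.16 ± 0.33), ISG15 (-0.52 ± 0.20) and IFIT1 (-0.82 ± 0.38), and all 3 had fallen on day 1. ISG15, a ubiquitin-like modifier induced by interferon, was at 1.95, 2.30, 2.42 and 2.09 on day 2, against 2.30, 2.69, 2.51, 2.76 and 3.26 in H0.

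Erythroid genes had a median of -0.21 on day 2, against -0.03 on day 1, with 20 of 32 tested members negative on day 2 and 4 (BCL2L1, HBG1, TAL1 and XK) at an unadjusted p under 0.05, all lower, beside 5.2% of all genes. The median was -0.02 without day 2 baboon 1 and -0.57 without day 2 baboon 3. BCL2L1, the survival factor BCL-XL of red cell precursors, was at 1.14, 1.14, 2.08 and 1.00 on day 2, against 3.44, 2.65, 2.53, 2.60 and 1.72 in H0 (difference -1.25 ± 0.37). HBG1, a fetal globin that its near-identical copy HBG2 may share signal with, was at 9.30, 9.56, 11.57 and 9.12 on day 2 and at 11.41, 11.36, 11.47, 11.05 and 11.08 in H0. In both genes baboon 3 had the highest day 2 value, and for HBG1 it was above every H0 array while the other 3 were below. The list's mean level was likewise highest in baboon 3, at 3.68, 3.64, 5.25 and 4.5 on day 2, against 5.03, 4.82, 4.86, 4.54 and 4.01 in H0.

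Housekeeping lists were close to H0 on day 2. The 78 tested genes of cytosolic ribosomal proteins had a median of 0.05 on day 2, against -0.56 on day 1, and 72 of them had a 95% interval that held 0 and lay within 1 of it on day 2, a condition that 12000 of all genes (56.8%) met. The 6 of 78 ribosomal genes that fell on day 1, beside 4.42% of all genes, were among these 72. The list's mean level was 7.57, 6.89, 8.24 and 8.05 on day 2 and 7.75, 7.84, 7.34, 7.68 and 7.55 in H0, so single animals lay on both sides of H0, and the median was -0.13 without day 2 baboon 3 and 0.29 without day 2 baboon 2. DNA repair genes had a median of 0.02 on day 2, against -0.51 on day 1. On day 1, 7 of 33 tested members fell, beside 4.42% of all genes, and 6 of these 7 met the same interval condition on day 2. The list's day 2 median was -0.14 without day 2 baboon 4. Subunits of the respiratory chain and ATP synthase had a median of 0.10, with 51 of 58 in the interval, and proteasome subunits a median of 0.11, with 38 of 42. POMP, a chaperone of proteasome assembly, differed by 0.97 ± 0.26 with all 4 day 2 arrays above H0. Cell cycle genes had a median of -0.18 over 33 tested members. TYMS and PLK1, a kinase of mitosis (0.93), had an unadjusted p under 0.05 on the higher side, a share near the 5.35% of all genes. A second PLK1 probe gave -0.14, so its probes disagree in sign. The list's median was -0.04 without day 2 baboon 1 and -0.38 without day 2 baboon 3.

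**Figure D4:**
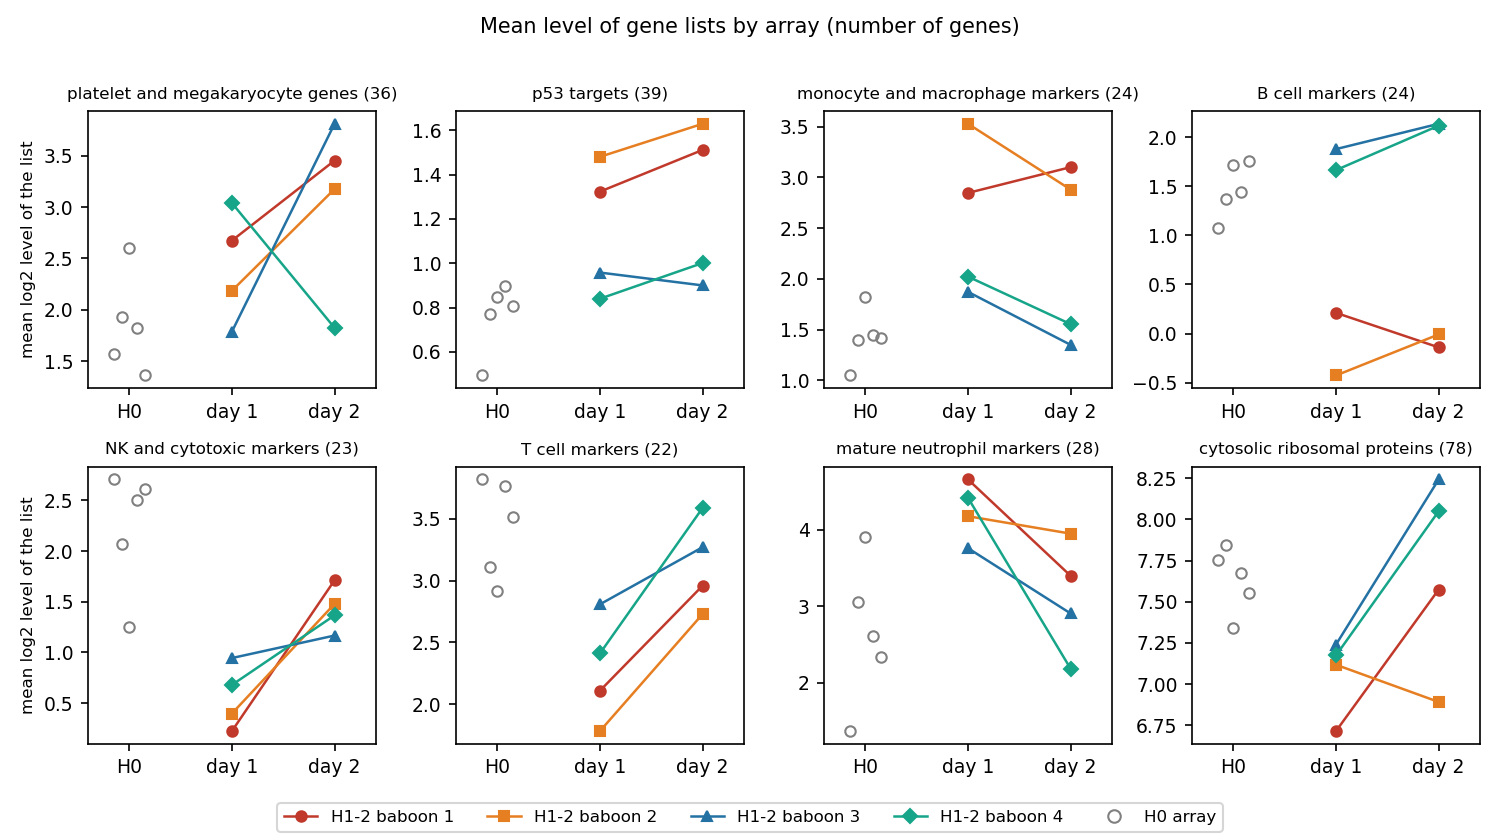
Mean log2 level of 8 gene lists on each array, for H0 (open circles, 5 arrays) and for the H1-2 baboons on day 1 and day 2 (lines join the same baboon number). The B cell, p53 and monocyte lists separate baboons 1 and 2 from baboons 3 and 4 on both days, and the platelet list is highest on day 2 in baboons 1, 2 and 3.

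The genes that differed on day 1 were then followed to day 2. On day 1, 1816 of the 21128 genes (8.6%) were called against H0, 883 higher (4.18%) and 933 lower (4.42%), 1100 of them by at least 2-fold, and 5662 (26.8%) had an unadjusted p under 0.05. Both comparisons use the same 5 H0 arrays, so their errors are shared. A day-1 gene was counted as still apart on day 2 when its difference kept its direction with an unadjusted p under 0.05, as back at the H0 level when its 95% interval held 0 and lay within 1 of it, and as undecided otherwise. Of the 1816 genes, 409 (22.52%) were still apart, 845 (46.53%) were back at the H0 level and 562 (30.95%) were undecided. Of all genes, 5.35% were higher and 5.2% lower on day 2 at an unadjusted p under 0.05 (limma). With the H0 arrays shared, the share still apart is not independent of the day 1 calls. The condition for being back was met by 56.8% of all genes tested, a larger share than among the day-1 genes. The mean day 2 level lay inside the range of the H0 arrays for 1275 of them (70.21%), against 16691 of all genes (79%).

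Genes that had risen and genes that had fallen on day 1 differed in these counts. Of the 883 that rose, 280 (31.71%, beside 5.35% of all genes) were still apart, 263 (29.78%) back and 340 (38.51%) undecided. Their median difference stood at 0.52 on day 2, against 1.16 on day 1. Of the 933 that fell, 129 (13.83%, beside 5.2% of all genes) were still apart. Another 582 (62.38%, beside 56.8% of all genes) were back and 222 (23.79%) undecided. The median difference of the 933 was -0.28 on day 2 and -1.02 on day 1. No test of this asymmetry was made, and the larger median of the risen genes on day 1 goes with it. All 4 day 2 arrays lay outside the H0 range on the day-1 side for 71 of the 1816 genes, 37 of them higher and 34 lower. Of all genes, 0.824% had all 4 day 2 arrays above every H0 array and 0.899% had them below. The 71 genes are not independent of the day 1 calls, as both use the same H0 arrays. On day 1 itself all 4 arrays lay above every H0 array for 1054 of all genes (4.99%) and below every H0 array for 1140 (5.4%).

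**Figure D5:**
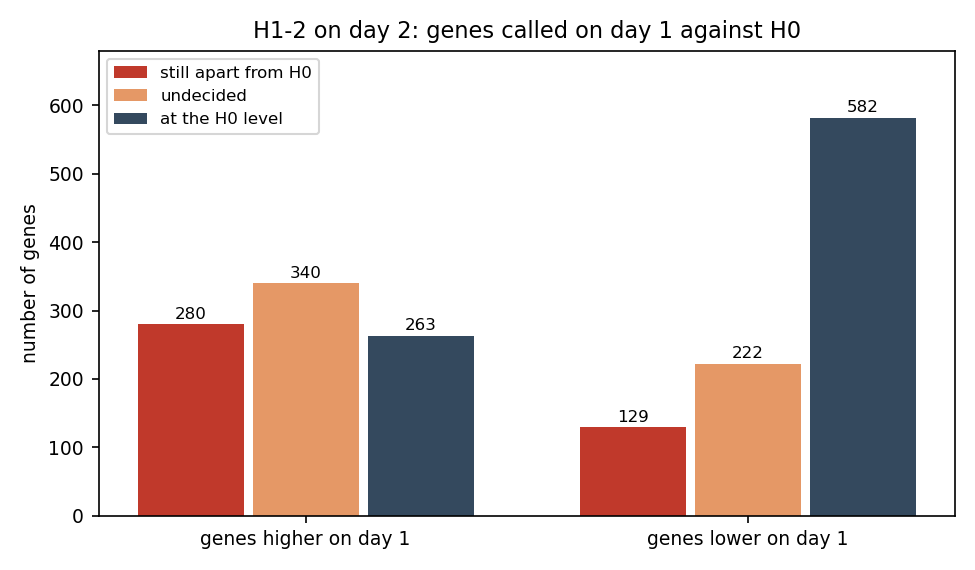
Number of genes called on day 1 against H0, split by their day 1 direction and by their state in H1-2 on day 2 (bars start at 0). Among genes lower on day 1, 582 are back at the H0 level on day 2, and among genes higher on day 1, 280 are still apart and 263 are back.

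These counts depended on single arrays. The day-1 call counts were 4 without day 1 baboon 1, 402 without day 1 baboon 2, 497 without H0 baboon 1, 543 without H0 baboon 5, 817 without H0 baboon 4, 891 without day 1 baboon 4 and 3105 without H0 baboon 3. Without baboon 1 on both days no gene was called on day 1. The number still apart ranged from 0 in that setting to 995 (without H0 baboon 3), and the number back at the H0 level from 0 to 1184. Slide as a block left 9 day-1 calls and scan day as a block left 4; keeping only the 3 H0 arrays of the day 1 scan day left 15. Other scalings gave more day-1 calls, 2104 after quantile normalization and 2320 with the percentile over detected probes, and moved the balance: they were 726 higher and 1378 lower after quantile normalization, and 751 and 1569 when the percentile was taken over probes detected on every array.

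Among genes with a symbol, the 8 largest rises of day 1 were still apart or undecided on day 2. MARCO, SLC26A9, an anion transporter, HSPB1, a small heat shock protein, TM4SF19 and EMR3, an adhesion receptor of myeloid cells, were still apart on day 2; HSPB1 was at 0.47, -0.10, -0.32 and 2.00 on day 2 and at -1.78, -0.86, -0.17, -1.35 and -1.22 in H0 (difference 1.59 ± 0.47, against 3.02 ± 0.47 on day 1). TM4SF19 differed by 2.32 ± 0.71 on day 2, with its highest value in baboon 1 (1.47), and EMR3 by 1.45 ± 0.61. SLC26A9 was above background on 2 of 4 day 2 arrays and on no H0 array. CD177, TMEM44 and CLEC4D, a C-type lectin of myeloid cells, were undecided: TMEM44 differed by 0.95 ± 0.88 and CLEC4D by 0.32 ± 0.65, with intervals reaching beyond 1 above 0.

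Of the 8 largest falls of day 1 among such genes, only FRMD6, a membrane-associated protein of the Hippo pathway, was still apart on day 2, at -0.86, -2.39, -3.81 and -0.45, against 1.39, -0.15, -0.81, -0.20 and 0.21 in H0. FGFBP2, MTX3, GZMH, HTRA1, MAPT, SRCIN1 and ITGA1 were undecided, with day 2 differences of -0.67 to -1.53, against -2.33 to -2.94 on day 1. MTX3, MAPT and ITGA1, a collagen-binding integrin, were well above background on no day 1 array, so their day 1 falls were of at least 1.68-, 2.43- and 1.83-fold; ITGA1 was above it on 2 of 4 day 2 arrays. Other probes differed: a second SRCIN1 probe gave 0.15 and a second MAPT probe -0.69 on day 1. No gene of these 16 was back at the H0 level, but for 13 of them the day 2 interval reached 1 or more to either side of the difference, so they could not have met that condition at any day 2 level.

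Compared directly, day 2 and day 1 of the H1-2 animals differed for 0 of 21128 genes at an adjusted p under 0.05 (0% called; limma), with 4955 genes at an unadjusted p under 0.05 (23.5%), 2272 higher (10.8%) and 2683 lower (12.7%) on day 2. The smallest adjusted p was 0.0693. The same baboon numbers were sampled on both days: with baboon as a random block 902 genes were called, 463 higher and 439 lower on day 2, with baboon as a fixed block 0, and with array weights 2433. All day 2 arrays were scanned on another scan day than the day 1 arrays, so day and scan day cannot be told apart here either. NUDT13, a Nudix hydrolase, was at -1.55, -1.93, -1.68 and -1.61 on day 2, against -2.88, -3.40, -2.95 and -2.82 on day 1, when it was above background on no array, and it was back at the H0 level. C20orf3, an enzyme also called APMAP, was at 3.97, 4.98, 3.90 and 3.83 on day 2, against 6.15, 5.83, 5.88 and 5.86 on day 1, and differed from H0 by 0.02 ± 0.31 on day 2. TP53TG1 and GCNT4 were also back at the H0 level, while RHOBTB1 stood on the higher side of H0 on day 2 (0.46) and on the lower side on day 1 (-0.66). UBASH3B, a phosphatase that limits T cell receptor signalling, was well above background on all 4 day 2 arrays, on 1 of 5 H0 arrays and on no day 1 array, so that its distance from H0 on either day is not well measured. TP53TG1 and GCNT4 were also well above background on no day 1 array. Among lists, 51 of the 78 ribosomal genes were higher on day 2 than on day 1 and 18 of the 28 neutrophil markers lower at an unadjusted p under 0.05.

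Against the more severe H2-3 category, which shared its slides and scan day, H1-2 on day 2 differed in 0 of 21128 genes at an adjusted p under 0.05 (0% called; limma; smallest adjusted p = 0.42), and in 2062 at an unadjusted p under 0.05 (9.76%), 762 higher (3.61%) and 1300 lower (6.15%). B cell markers had a median difference of 1.61 between H1-2 and H2-3, with 18 of 24 higher at an unadjusted p under 0.05. Their mean level was -0.14, -0.01, 2.14 and 2.12 in H1-2, against -0.30, -0.67, -0.30, -1.03 and -0.37 in H2-3. All 4 H1-2 arrays lay above all 5 H2-3 arrays, baboons 1 and 2 by under 0.3 and baboons 3 and 4 by more than 2. WNT3 averaged 4.21 ± 2.43 in H1-2 (SD, n = 4) and 1.21 ± 0.55 in H2-3 (SD, n = 5). Neutrophil markers were lower in H1-2 for 28 of 28 tested members and inflammatory genes for 31 of 31, with 9 and 13 of them at an unadjusted p under 0.05.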

How the data were processed

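Blood RNA was hybridised with 1 dye to human whole-genome arrays of 62976 spots, 1 array a sample. The spot intensities deposited were made by the authors with Agilent Feature Extraction 10.7.3.1, per the submitters' processing notes; the processed intensity is background-subtracted, per the file headers. The deposited table of processed values (39726 probes), used as an alternative, holds values on a log2 scale as judged from its correlation of 0.998 or more with the log2 scanner intensities; the authors gave every column the same median, 4.7029, and how they scaled and centred it is unknown.

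From the scanner files, control spots and outlier spots were left out, spots of a probe were averaged, and log2 processed intensity minus the array's 75th percentile was taken. Probes well above background on at least 4 arrays were kept (27212 of 50599), and the probe with the highest mean stood for its gene, giving 21128 genes, 14531 with a symbol. Gene names are those in the files. limma 3.58.1 in R 4.3.3 (with statmod 1.5.0 and version 1.17.8 of data.table) fitted the 5 group means over all 23 arrays, which share 1 estimate of the spread, and adjusted p-values by Benjamini-Hochberg over all 21128 genes; SE and 95% intervals come from this fit. The fit was also run on simulated normal values, drawn independently for each gene and array. These held no slide, scan day or animal effect, so that run cannot speak to such effects. Tables and figures used Python 3.11.15, pandas 2.3.3 and matplotlib 3.10.9. The number of arrays limits the precision.

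Arrays were grouped by their titles. Nothing states that the samples of a group came from separate extractions, so p-values measure the spread between these samples. Titles repeat the baboon numbers on day 1 and day 2 of a category, which was read as the same animals; deviations of same-numbered arrays correlated at 0.38, 0.39, 0.16 and 0.057 (baboons 1 to 4), and none correlated best with its own number.

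The members and the 25 gene lists were chosen with earlier results of these data known. Genes were named by rule: the 12 higher and 12 lower with the smallest p among those with a symbol that were well above background on every array of either group; the 8 largest rises and 8 largest falls of day 1 among called genes with a symbol; the 5 higher and 5 lower with the smallest p between day 2 and day 1; tested members of the platelet and p53 lists; the 3 members of each other list with the smallest p; and a short set of known radiation and blood genes. VSIG4, CTSD, CD4, GZMK and XK, as members of small counts, were named after their values were seen. Some genes that the rule names are not reported here. Scaling, background correction, filters, probe choice, array weights, blocks for slide, scan day and replicate number, and left-out arrays were tried as alternatives. A slide random block, H0 arrays of the day 1 scan day alone, leaving out a baboon on both days, and leaving out arrays of one day for the comparison of the other with H0 were chosen after seeing the data.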

Additional observations from a re-analysis of the deposited data

Results flagged for a closer look

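Among 116 named genes and 25 lists, 282 groups of 4 or 5 values were searched for an array far from the others, and 14 values in 13 genes and lists were found, where chance gives about 14. H0 baboon 3 was such an array in 5 genes: AEN was at -5.13 there, against -3.10 to -2.37 on the other H0 arrays, and CCR7 at 4.45, against 6.29 to 6.59. The same array was high for TMEM44 (1.93, against -2.21 to -1.07), CDKN1A (-1.67, against -3.43 to -3.17) and VWF (2.22, against 0.05 to 0.66). H0 baboon 1 was low for CD163 (3.38, against 5.00 to 5.62) and for the mean level of the glucocorticoid-responsive genes (2.39, against 3.29 to 3.60), and H0 baboon 5 was low for GFI1B (-0.37, against 0.37 to 0.54).

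On day 2, baboon 4 was low for GDF15 (0.41, against 1.77 to 2.04 in the others) and VWF (1.15, against 2.90 to 3.17). Baboon 3 was high for BCL2L1 (2.08, against 1.00 to 1.14) and DCT (0.17, against -0.96 to -0.79). Baboon 2 was high for MGAM (4.28, against 3.46 to 3.59) and C20orf3 (4.98, against 3.83 to 3.97).

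For 7 genes, all 4 day 2 arrays lay on one side of the H0 mean and all 4 day 1 arrays on the other. All but RPS19 were among the genes named for the smallest p between day 2 and day 1 in these arrays. That choice favours opposite sides, and the same count over all genes was not made. Both days share the H0 arrays, so the gap between them is the difference of day 2 from day 1. For that difference 0 of 21128 genes passed an adjusted p under 0.05 (limma) in the reported fit. RPS19, a ribosomal protein, stood at 0.53 on day 2 and -0.20 on day 1, and RHOBTB1 at 0.46 and -0.66; both were well above background on all of these arrays. The other 5 rest on signal partly below background. UBASH3B stood at 1.37 and -0.82, well above background on 4 of 4 day 2, 0 of 4 day 1 and 1 of 5 H0 arrays. PTHLH stood at -1.35 and 0.26, well above background on 1 of 4 day 2 arrays. On no day 2 array were the other 3 well above background: FOLH1, a folate hydrolase, stood at -0.81 and 0.68, C18orf62 at -0.78 and 0.54, and KLF15, a transcription factor induced by glucocorticoids, at -0.65 and 0.57, so their day 2 values are no measured levels.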

How the results depend on the processing

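The medians of the platelet list (0.95 to 1.66) and of the p53 list (0.19 to 0.52) stayed positive on day 2 in all 31 alternatives. Of 116 named genes, 9 changed sign against H0 in at least 1 alternative; their reported differences were -0.25 to 0.34 and none was called. C20orf3 was at -0.037, -0.034, -0.037, -0.056, -0.094 and -0.030 with quantile scaling, the detected-probe percentile, the deposited table, array weights, the replicate block and the H0 arrays of the day 1 scan day. XPC was at -0.024, -0.042, -0.025, -0.028 and -0.15 in those settings other than weights. CLEC4D was at -0.064, -0.076 and -0.28 with normexp, weights and those H0 arrays, GADD45A at 0.014 and 0.066 with normexp and weights, and GCNT4 at -0.075, -0.0035 and -0.079 with normexp, the deposited table and weights. PLK2 was at -0.13 and -0.043 with weights and those H0 arrays, BAX at -0.00288 and -0.057 with the mean of its probes and those H0 arrays, and CCR7 at 0.019 with those H0 arrays. With 1 array or 1 baboon left out, the ranges were -0.25 to 0.22 for C20orf3, -0.72 to 0.20 for CCR7, -0.12 to 0.79 for CLEC4D, -0.17 to 0.10 for GADD45A, -0.057 to 0.38 for GCNT4, -0.11 to 0.35 for PLK2, -0.018 to 0.33 for TP53TG1 and -0.21 to 0.33 for XPC. Leaving out both arrays of a baboon gave -0.075, -0.21 and -0.016 for XPC (baboons 1, 2 and 4), -0.25, 0.20 and -0.000547 for C20orf3, CCR7 and CLEC4D (baboon 2), -0.039 and -0.018 for PLK2 and TP53TG1 (baboon 3), and 0.10, -0.057 and -0.11 for GADD45A, GCNT4 and PLK2 (baboon 4). Calls on day 2 against H0 numbered 33 with array weights, 1 (CD1A) with the H0 arrays of the day 1 scan day and 0 to 14 with an array or baboon left out: 2 without H0 baboon 3, 4 and 6 without day 2 baboons 3 and 4, 1 without day 1 baboon 3, and 6 and 14 without baboons 3 and 4 on both days. Day 2 against day 1 gave 4 with normexp, 19 with the deposited table, 5 without the filter on dim probes, 2433 with weights, 902 with baboon as a random replicate block, 0 to 181 with an array left out (181 and 73 without day 2 baboons 2 and 3) and 16 without baboon 3 on both days. H1-2 against H2-3 on day 2 gave 1 without the filter. Day 1 against H0 gave 211 with only the groups compared, 9 with slide and 4 with scan day as a block, 0 with the replicate block, 15 with the H0 arrays of its scan day, 0 to 3105 with an array or baboon left out, and 0, 712 and 1111 without baboons 1, 2 and 4 on both days. Genes still apart on day 2 numbered 68 with only the groups compared, 754 with weights, 0 with the replicate block, 11 with those H0 arrays and 0 to 995 with an array or baboon left out (0 and 100 without baboons 1 and 2 on both days). Genes back at the H0 level numbered 64 with only the groups compared, 0 with the replicate block, 3 with those H0 arrays and 0 to 1184 with an array or baboon left out (0, 390 and 266 without baboons 1, 2 and 4 on both days). Fits on fewer groups or arrays have fewer samples by construction; other causes were not tested. Whether numbers shared by H0 and day 2 arrays mark the same animals is not known. Same-numbered deviations correlated at -0.32, 0.018, -0.042 and 0.22, and only baboon 4 correlated best with its own number. No day 2 array correlated best with its own number on day 1 either, although these were read as the same animals. The correlations therefore cannot decide whether H0 and day 2 arrays are paired. Slide or scan day as a fixed block could not be fitted for day 2 against H0 or day 1, which share neither. Probes not well above background on every array limit what can be said of MARCO, EPS8, PTHLH, GZMA, CDKN1A, TYMS and UBASH3B, among others. Over 30 alternatives the day 2 difference from H0 ran from 0.73 to 4.18 for MARCO, from 0.38 to 2.08 for CDKN1A and from 0.68 to 2.44 for TYMS. With 1 array left out, the day 2 median changed sign for 9 of the 25 lists.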

Other observations

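Genes of MHC class II antigen presentation had a median difference of 0.16 over 16 tested members, 13 of them positive and 0 with an unadjusted p under 0.05 (limma), and none was called on day 1; HLA genes resemble each other closely, so their probes may share signal. The WNT pathway list had a median of -0.10 over 31 tested members, with 12 positive and 19 negative and none at an unadjusted p under 0.05. Plasma cell markers had a median of -0.13 over 15 members. PDIA4, a chaperone of the endoplasmic reticulum, was the only one at an unadjusted p under 0.05 (0.68), a share near the 5.35% of all genes on the higher side. Eosinophil and basophil markers had a median of -0.12 on day 2, against -0.86 on day 1, over 11 members. ALOX15 was the only one at an unadjusted p under 0.05 on day 2, beside 5.2% of all genes on the lower side. The day 2 median turned to 0.05 for plasma cell markers without day 2 baboon 2 and to 0.13 for eosinophil and basophil markers without H0 baboon 3.

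Heat shock chaperones had a median of 0.04 on day 2 over 24 members (-0.01 without day 2 baboon 4). HSPB1 was the only one at an unadjusted p under 0.05, a share near the 5.35% of all genes on the higher side. HSPA1A, an inducible HSP70 gene with a near-identical copy, differed by 0.74. Immediate early genes had a median of 0.39 on day 2, against 0.72 on day 1, with 19 of 21 members positive, and 0.22 to 0.63 with 1 array left out; KLF4, a transcription factor of monocytes and epithelia, differed by 0.95. Replication-dependent histone genes, whose copies are alike in sequence, had a median of 0.18 on day 2, against 0.42 on day 1, over 54 members, and 0.02 on day 2 without day 2 baboon 2. Naive lymphocyte markers had a median of -0.11 on day 2, against -1.10 on day 1, over 9 members, none of them at an unadjusted p under 0.05 on day 2, and its day 2 median was 0.20 without day 2 baboon 2.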
